A study of Canis lupus familiaris with 17 samples.

Results

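Natural killer (NK) cells were examined in single-cell RNA sequencing of circulating leukocytes from 17 client-owned dogs. The cells were chosen by raw counts of unique molecular identifiers (UMIs, each marking 1 captured transcript). A cell was kept when it held no UMI of CD3E, CD3G, MS4A1 or CAMP, at least 1 UMI of GZMA, and at least 1 UMI of 2 or more of the 6 markers KLRF1, STMN2, PAX4, F2RL3, IGSF3 and FREM1. Of 84361 cells with 200 to 4500 genes, 500 to 20000 UMIs and less than 10% mitochondrial UMIs, 247 (0.293%) met this rule, 141 from healthy dogs and 106 from dogs with osteosarcoma (OS). The healthy group held 7 clinically healthy, middle-aged dogs (H1 to H7), and the OS group held 10 treatment-naive dogs with a primary bone tumor (OS1 to OS10), some of them older than any healthy dog. All were wild type by label, of several breeds, and each gave 1 library of primary cells from a density gradient. The 17 libraries held 1332 to 7748 cell barcodes, and the median depth of their cells was 3674.5 to 6718 UMIs.

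NK cells are lymphocytes that kill infected or transformed cells without a rearranged antigen receptor. They weigh signals from activating and inhibitory surface receptors, pass them through adaptor proteins and kinases, and release granzymes and perforin. They share much of this machinery with cytotoxic T cells, which differ by their T cell receptor and its CD3 subunits. T cells with GZMA transcripts were therefore used as the nearest population for comparison. They were gated by at least 1 UMI each of CD3E, CD3G and GZMA and none of MS4A1 or CAMP, and numbered 5778 cells.

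The gate rested on 6 markers whose transcripts were sparse. Within the 247 NK cells, KLRF1, an activating C-type lectin receptor, had a UMI in 59.9% of cells (95% Clopper-Pearson interval 53.5 to 66.1%, counting error only). IGSF3, a membrane protein of the immunoglobulin superfamily, had one in 62.3%, FREM1, an extracellular matrix protein, in 47.0%, STMN2, a microtubule regulator known from neurons, in 42.5%, F2RL3, a thrombin receptor, in 42.5%, and PAX4, a transcription factor known from the endocrine pancreas, in 24.3%. These shares describe the rule and carry no test. Among B cells, gated on MS4A1 and with a median depth of 4580.5 UMIs against 5239 in NK cells, KLRF1 had a UMI in 0.449% of cells, STMN2 in 1.02% and IGSF3 in 0.165%. With cells of at least 2000 UMIs thinned to 2000, KLRF1 was found in 29.6% of NK cells and in 0.538% of GZMA+ T cells. The NK cells were chosen by these markers before thinning, so the rule sets this contrast too.

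Many NK cells held no more markers than the rule required. A UMI of exactly 2 markers was found in 116 cells (47.0%), of 3 in 86 (34.8%), of 4 in 30, of 5 in 12 and of all 6 in 3. The most frequent pair was KLRF1 with IGSF3 alone (25 cells), followed by IGSF3 with FREM1 alone (15 cells). IGSF3 and FREM1 were also the markers found most often outside the gate, in 32.2% and 13.2% of GZMA+ T cells.

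The markers did not occur evenly across dogs. FREM1 had a UMI in NK cells of every healthy dog, from 1 of 9 cells in H4 to 22 of 26 in H3. It had none in the NK cells of OS5, OS6, OS7, OS8 and OS10 (0 of 57 cells together), whereas all 7 NK cells of OS1 and all 5 of OS4 held it. In OS4 none of these cells held 3 or more markers, and KLRF1 was found in 1 of the 5. FREM1 was found in 220 of all 4105 cells of OS4, so the label rests on less there. FREM1 was not absent from the OS6 library, since 131 of its other cells held a UMI. STMN2 was found in 42 of 66 NK cells of H5 and in 1 of 15 of H1, and PAX4 in 9 of 26 of H3 and 2 of 39 of OS6.

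Genes that the rule did not use were then read to check the label. NCR3, an activating receptor of NK cells, had a UMI in 97.6% of NK cells, CD96, an NK and T cell receptor for nectins, in 96.8%, and IL2RB, the signaling chain of the interleukin 2 and 15 receptors, in 99.6%. In myeloid cells the same genes had a UMI in 0.679%, 0.332% and 0.920%. GZMA+ T cells also held NCR3 in 91.0% and CD96 in 81.5% of cells, so a UMI of either gene was common in both populations. CD8A, a T cell co-receptor chain, was found in 2 NK cells (0.810%) against 59.4% of GZMA+ T cells, and CD3D, the CD3 subunit left out of the rule, in 3.64% against 87.5%. NCR3, CD96 and IL2RB are markers that the study found in these same samples, and CD3D was read in cells gated to hold no CD3E or CD3G, so they are not independent evidence for the label. NCR1 and NCAM1, also used to define NK cells, were scarce, with 33 UMIs and 1 UMI in the NK cells of 15 dogs.

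**Figure D1:**
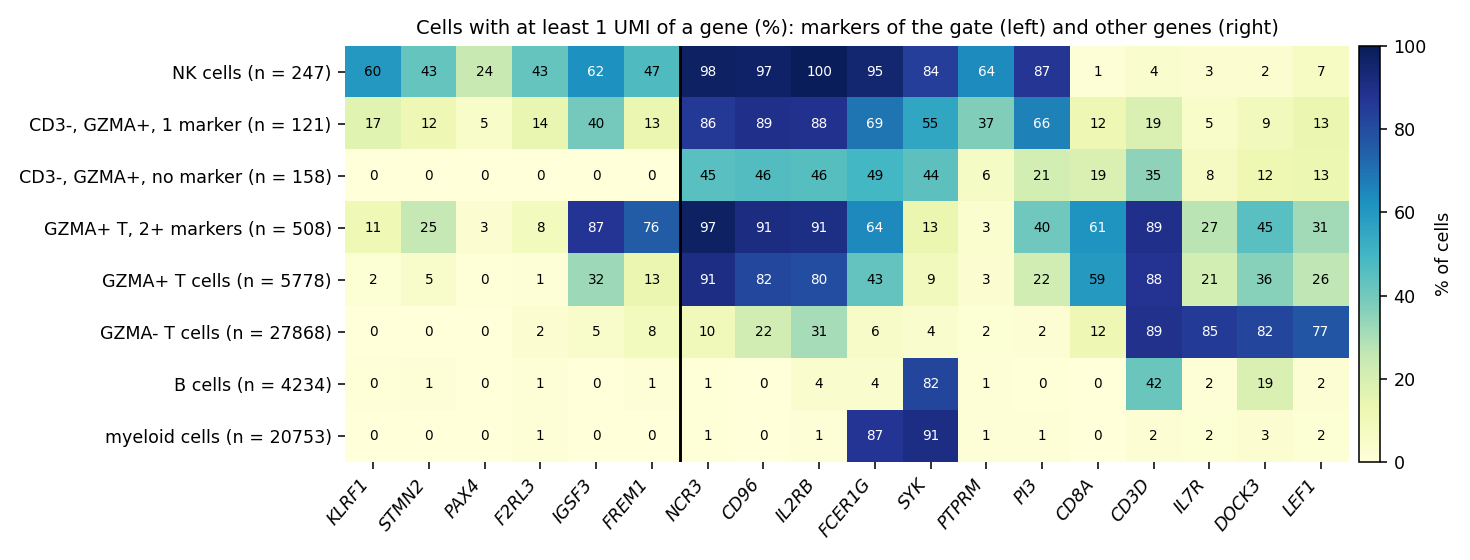
Percentage of cells with at least 1 UMI of each gene (columns) in 8 populations (rows, with cell numbers). Genes left of the line are markers of the gate and describe the rule. To the right, SYK and PTPRM are found in 84.2% and 64.0% of NK cells but in 9.24% and 2.91% of GZMA+ T cells, and both step down in CD3-negative GZMA+ cells with 1 or none of the markers, where CD3D and CD8A step up.

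Cells just outside the gate were partly alike. The 121 CD3-negative GZMA+ cells with a single marker held NCR3 in 86.0%, SYK in 55.4%, PTPRM in 37.2% and CD3D in 19.01% of cells. The 116 NK cells with exactly 2 markers held these genes in 94.8%, 79.3%, 57.8% and 5.17%. The 158 CD3-negative GZMA+ cells with none of the markers had NCR3 in 44.9%, CD3D in 34.8% and LYZ, the lysozyme gene of myeloid cells, in 38.0%. Their median depth was 3333 UMIs, against 4218 for cells with 1 marker and 4814.5 for those with 2. The markers alone did not pick the same cells among T cells, since 508 GZMA+ T cells held 2 or more of them, with CD8A in 61.0%, SYK in 13.2% and PTPRM in 3.15% of cells.

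NK cells were rare in every dog. The healthy dogs held 15, 6, 26, 9, 66, 5 and 14 NK cells (H1 to H7), and the dogs with OS 7, 19, 5, 5, 5, 39, 3, 9, 13 and 1 (OS1 to OS10). H5 alone held 26.7% of all NK cells, so values over pooled cells lean on this dog. The share of NK cells ranged from 0.102% to 1.51% in healthy dogs (median 0.249%, mean 0.420 ± 0.497%, SD, n = 7) and from 0.0203% to 0.747% in dogs with OS (median 0.174%, mean 0.231 ± 0.216%, SD, n = 10). The groups overlapped over most of their range.

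The share did not differ between groups beyond the spread between dogs. The Hodges-Lehmann difference, OS minus healthy, was −0.0755 percentage points (95% interval −0.346 to 0.114; Wilcoxon rank-sum test, exact and two-sided, p = 0.364, where the smallest p the design allows is 0.000103). Among NK plus GZMA+ T cells, NK cells made up 6.27 ± 5.08% in healthy dogs and 5.55 ± 5.86% in dogs with OS (SD; exact Wilcoxon test, p = 0.601). Without H5 the healthy mean was 0.238 ± 0.137% (n = 6), and the exact p was 0.635. A density gradient preparation can hold varying amounts of neutrophils and monocytes, and shares of all cells move with them.

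**Figure D2:**
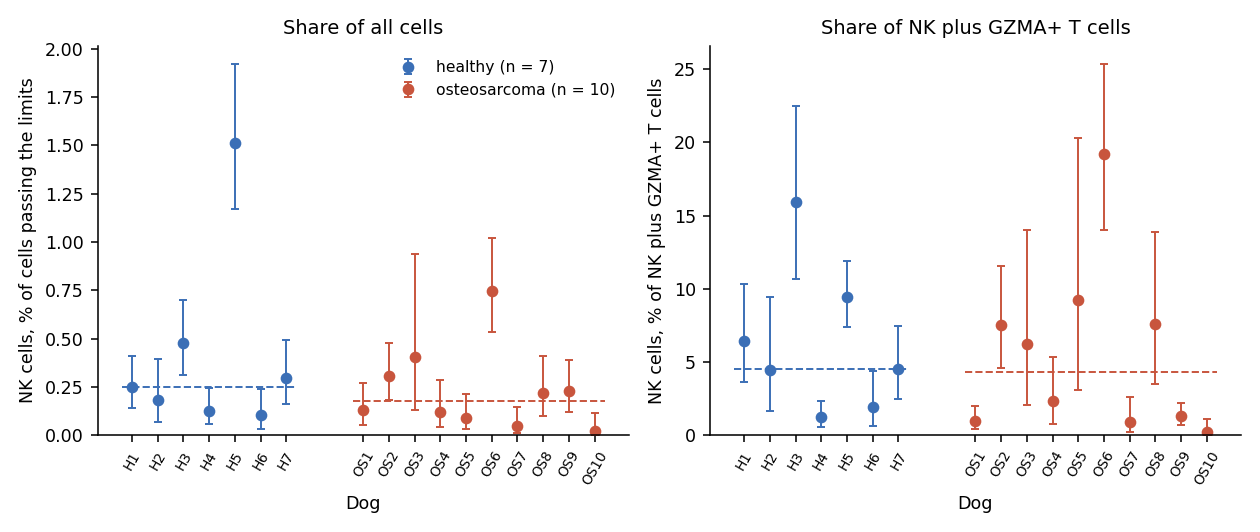
NK cells per dog as a percentage of all cells passing the limits (left) and of NK plus GZMA+ T cells (right); bars are 95% Clopper-Pearson intervals and dashed lines are group medians. H5 at 1.51% and OS6 at 0.747% are the highest of their groups on the left, and H3 at 15.95% and OS6 at 19.2% on the right.

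Gene expression of NK cells and GZMA+ T cells was compared within dogs, on sums of UMI counts per dog and population, with levels given as CPM, counts scaled to the same total for each sum. Only H3, H5 and OS6 held at least 25 cells of both, the minimum of the design. Sums of 5 or more cells, available in 15 dogs (7 healthy, 8 with OS) and scaled by totals, are given beside them; this choice was made after the data were seen. Genes of either gate were left out, and a call required an adjusted p below 0.01 (edgeR quasi-likelihood test, Benjamini-Hochberg adjustment) and an absolute log2 fold change above 0.58. Of 10141 genes tested in 3 dogs, 133 were higher in NK cells (1.31%) and 162 lower (1.6%), together 2.91%. In 15 dogs 193 of 12374 genes were higher (1.56%) and 160 lower (1.29%), together 2.85%. Called in both fits were 209 genes, 70.8% of those called in 3 dogs and 59.2% of those called in 15. The gate markers came from clusters of these same samples and the T cells were chosen by CD3 genes, so the calls describe the gated cells and are not independent of the choice of markers.

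Genes were also read in groups, which were chosen with earlier results of these data known. Of 18 tested adaptor and signaling genes, 6 were higher in NK cells and none lower. Over all genes 1.31% were higher and 1.6% lower. The same 6 were called in 15 dogs. The median log2 fold change of all 18 was 0.33, against −0.10 over all genes. SYK, the tyrosine kinase that binds phosphorylated receptor motifs, stood at 424, 455 and 393 CPM in NK cells of H3, H5 and OS6, and at 72.9, 25.9 and 69.2 CPM in their GZMA+ T cells. The difference was 3.19 ± 0.19 (log2, SE, adjusted p = 5.51e-63, edgeR), and NK cells were higher in 15 of 15 dogs. This fit shares spread over genes, so its p and SE from 3 dogs do not measure the gene's own spread between dogs. FCER1G, a signaling chain shared by Fc and natural cytotoxicity receptors, stood at 815, 906 and 651 CPM against 281, 430 and 204 CPM, a difference of 1.34 ± 0.14 (log2, SE), again with NK cells higher in 15 of 15 dogs.

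The other called genes of this group act in the same relay. VAV3, an exchange factor for small GTPases, was higher by 1.58 ± 0.13, TXK, a Tec family kinase, by 1.35 ± 0.12, PLCG2, a phospholipase, by 1.11 ± 0.18, and LAT2, a membrane adaptor related to LAT, by 2.89 ± 0.73 (log2, SE), the last on 17 UMIs in NK cells of the 3 dogs. LAT2 lost its call without any 1 of the 3 dogs. For ZAP70 and LCK, the kinases of T cell receptor signaling, the log2 differences of 0.35 ± 0.19 and 0.21 ± 0.20 (SE) did not pass the test.

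Of 17 tested surface receptor genes of NK cells, CD96 was higher, CD160 and CRTAM were lower and 14 were not called (median 0.04). Of all genes, 1.31% were higher and 1.6% lower. CD96 stood at 1206, 1310 and 1324 CPM in NK cells of H3, H5 and OS6 and at 402, 698 and 559 CPM in GZMA+ T cells, a difference of 1.17 ± 0.12 (log2, SE). CD160, a receptor for HVEM, differed by −1.62 ± 0.38, and CRTAM, a receptor of activated T cells, was called in 3 dogs but not in 15 (adjusted p = 0.051). KLRK1, the activating receptor NKG2D, differed by 0.01 ± 0.13 and KLRD1, the CD94 chain, by −0.03 ± 0.15. NCR3 (0.43 ± 0.11, adjusted p = 0.0050) and KLRB1, an inhibitory lectin receptor (0.48 ± 0.12, adjusted p = 0.0013), passed the p but not the fold threshold. NCR1, the NKp46 receptor, had no UMI in the NK cells of 5 of 15 dogs, and NCAM1, the CD56 gene used to sort human NK cells, had none in 14. TIGIT, an inhibitory receptor, had no UMI in the NK cells of these dogs.

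Granule genes were found in both populations. Of 16 tested, none was higher in NK cells, and GZMK, CTSW and TNFSF10 were lower. Of all genes, 1.31% were higher and 1.6% lower. GZMB, the main apoptosis-inducing granzyme, stood at 1814, 1841 and 2148 CPM in NK cells and 1372, 1670 and 1186 CPM in GZMA+ T cells (0.41 ± 0.10, log2, SE), short of the fold threshold. GZMK, a granzyme of memory T cells, stood at 141, 133 and 180 CPM against 254, 209 and 273 CPM (−0.72 ± 0.18), and was lower in 14 of 15 dogs. CTSW, a cathepsin of cytotoxic cells, differed by −1.56 ± 0.24, and TNFSF10, the death ligand TRAIL, by −0.85 ± 0.19 in 3 dogs but by −0.15 in 15, where it was not called. Without any 1 of the 3 dogs GZMK, CD160 and CRTAM lost their calls. FASLG, the death receptor ligand, and PRF1, the pore-forming perforin, did not pass the test, with 0.31 ± 0.20 and 0.74 ± 0.29 (log2, SE). None of 11 tested cytokine and chemokine genes was called (median −0.21). With 2.91% of all genes called, a list of this size would hold few or no calls, so this says little. IFNG had no UMI in the NK cells of the 15 dogs and CSF2 had 1.

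Cytokine receptors differed in both directions. IL2RB stood at 1365, 1400 and 1200 CPM in NK cells of H3, H5 and OS6 against 442, 778 and 534 CPM (1.14 ± 0.12, log2, SE), and IL12RB2, a chain of the interleukin 12 receptor, at 1506, 1485 and 1571 CPM against 479, 798 and 773 CPM (1.12 ± 0.11). IL7R, the interleukin 7 receptor of naive and memory T cells, stood at 8.32, 2.30 and 5.61 CPM against 241, 186 and 257 CPM (−5.69 ± 0.41), and was lower in NK cells of 15 of 15 dogs. Each of its NK values in H3, H5 and OS6 rests on 1 UMI, so the size of the difference is uncertain. These 3 were the called genes among 17 tested (median 0.22), where 2.91% of all genes were called. In 15 dogs IL18R1 and KIT were also higher and TGFBR2 lower, KIT on 9 UMIs.

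Among 17 tested homing and adhesion genes, 2 were higher in NK cells and 4 lower. The median was −0.50, or −0.35 with the gene without NK UMIs at its bound of 3 counts over the group. Of all genes, 1.31% were higher and 1.6% lower. ITGB1, the integrin beta 1 chain, stood at 1173, 991 and 1357 CPM against 165, 326 and 395 CPM (1.95 ± 0.13, log2, SE). ITGAM, the CD11b chain of myeloid and NK cells, stood at 1198, 1085 and 808 CPM against 403, 429 and 304 CPM (1.39 ± 0.13). Among the lower genes were ITGA1, a collagen receptor chain (−3.09 ± 0.37), and CXCR4, a bone marrow homing receptor (−1.05 ± 0.22). CXCR3, CCR2 and S1PR5 had no UMI in NK cells of the 15 dogs.

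**Figure D3:**
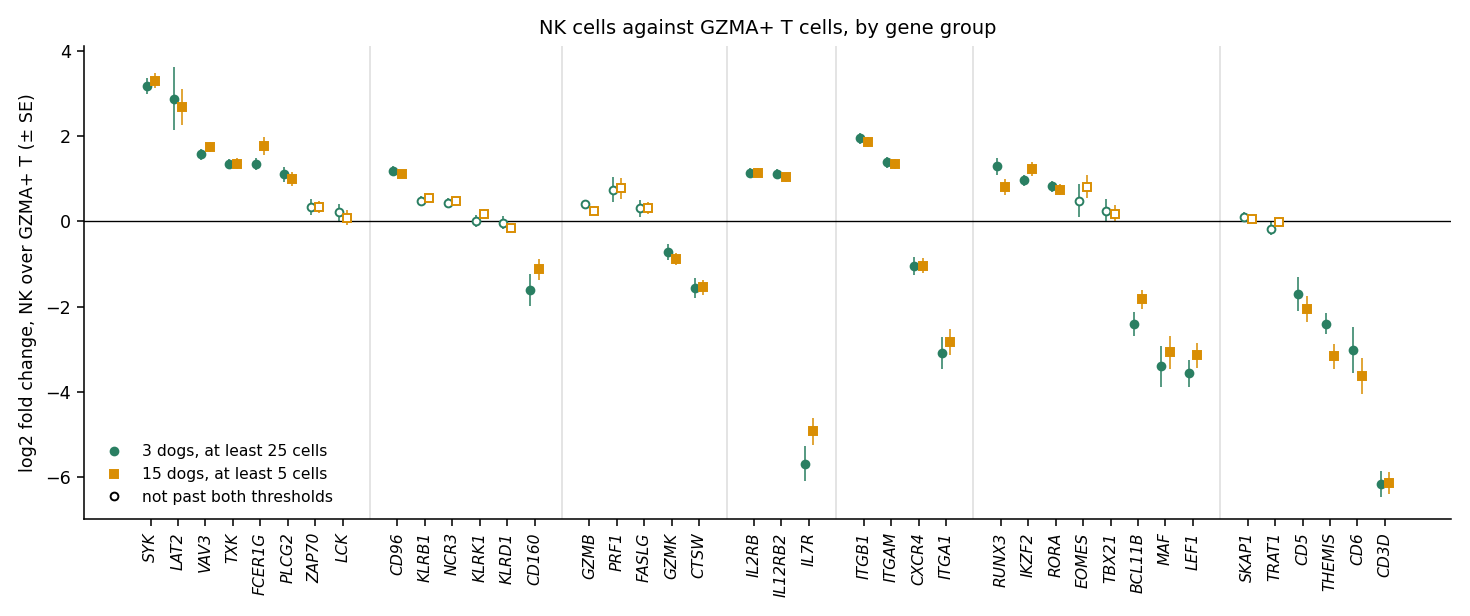
Log2 fold change of NK cells over GZMA+ T cells (y axis, ± SE) for genes ordered by group, from left: signaling, receptors, granule, cytokine receptors, homing, transcription factors and T cell genes. Circles are 3 dogs with at least 25 cells and squares 15 dogs with at least 5; open symbols did not pass both thresholds. SYK lies at 3.19 and IL7R at −5.69 in 3 dogs, the latter on 1 NK UMI per dog, while KLRK1 and KLRD1 lie near 0.

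Of 25 tested transcription factors, 3 were higher and 4 lower (median 0.14). The share of all genes called was 2.91% in 3 dogs and 2.85% in 15. In 15 dogs 5 of 26 were higher and 3 lower, with PRDM1 (0.84 ± 0.18) and ZEB1 (0.74 ± 0.14) added to the higher genes. RUNX3, a regulator of cytotoxic lineages, was higher by 1.29 ± 0.20, IKZF2, the Helios factor, by 0.97 ± 0.13, and RORA by 0.83 ± 0.13 (log2, SE). The lower genes were LEF1, a factor of naive T cells (−3.57 ± 0.32), MAF (−3.41 ± 0.49), BCL11B, which holds T cell identity (−2.40 ± 0.28), and BACH2 (−0.97 ± 0.21), which was not called in 15 dogs (−0.51, adjusted p = 0.50). TBX21 and EOMES, the T-box factors of cytotoxic lymphocytes, differed by 0.25 ± 0.27 and 0.48 ± 0.39 and were not called.

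Some T cell genes were nearly absent from NK cells and others were not. Of 15 tested, 6 were lower and none higher (median −1.71, or −0.78 with genes without NK UMIs at their bound). Of all genes, 1.31% were higher and 1.6% lower. CD8A had no UMI in NK cells of H3, H5 and OS6, at least 44.4-fold lower than in GZMA+ T cells at 3 counts over the 3 dogs. CD3D stood at 8.32, 9.20 and 0 CPM against 580, 470 and 442 CPM (−6.17 ± 0.31, log2, SE). THEMIS, CD6, CD5 and CAMK4, which act in T cell development and receptor signaling, differed by −2.40, −3.02, −1.71 and −0.61. SKAP1, an adaptor of T cell adhesion, and TRAT1, an adaptor of the T cell receptor complex, did not pass the test: they stood at 1032, 1234 and 1038 CPM against 995, 1022 and 972 CPM for SKAP1 (0.11 ± 0.11), and at 316, 294 and 488 CPM against 373, 412 and 375 CPM for TRAT1 (−0.17 ± 0.15).

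Large differences over all genes were also found outside these groups. PTPRM, a receptor tyrosine phosphatase, stood at 366, 370 and 477 CPM in NK cells of H3, H5 and OS6 and at 13.4, 4.12 and 19.6 CPM in GZMA+ T cells (5.47 ± 0.24, log2, SE). Over 15 dogs PTPRM ranged from 35.0 to 1006 CPM (median 455) in NK cells and from 0 to 58.2 CPM (median 5.74) in GZMA+ T cells. NK cells were higher in every dog, and the 2 ranges overlapped only through the 35.0 CPM of OS4, which rests on 5 cells and 1 UMI. GZMA+ T cells of OS4 lay close, at 32.7 CPM of PTPRM. ITGB1 also lay close in this dog (456 against 436 CPM). SYK (210 against 15.4 CPM) and FCER1G (1402 against 23.1 CPM) did not. The NK sum of OS4 also held 7570 CPM of 11 neutrophil genes, against 2160 CPM in its GZMA+ T cells. Whether other cells added to SYK and FCER1G there was not tested. PI3, the elastase inhibitor elafin, stood at 4992, 2287 and 3915 CPM against 318, 499 and 90.1 CPM (3.65 ± 0.11). It was low in both populations of H4, at 45.5 and 3.48 CPM, and higher in NK cells of 15 of 15 dogs.

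Further genes of this rank were GNAI1, an inhibitory G protein subunit (3.85 ± 0.64), PPM1H, a protein phosphatase (3.23 ± 0.34), SLC37A1, a sugar phosphate transporter (3.09 ± 0.34), and 2 genes without a symbol, ENSCAFG00000011098 (3.84 ± 0.20) and ENSCAFG00000031333 (3.42 ± 0.14). Lower in NK cells beside CD8A, CD3D and IL7R were DOCK3, a guanine nucleotide exchange factor (no UMI in NK cells of the 3 dogs, at least 65.3-fold lower), UST, a sulfotransferase (−5.47 ± 0.54), RCAN2, a calcineurin regulator (−4.73 ± 0.61), GALNT17, a glycosyltransferase (−4.55 ± 0.84), and a gene without a symbol, ENSCAFG00000041010 (−6.21 ± 0.62). Apart from the bound for DOCK3, these are differences on the log2 scale with the SE of the edgeR fit of 3 dogs.

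**Figure D4:**
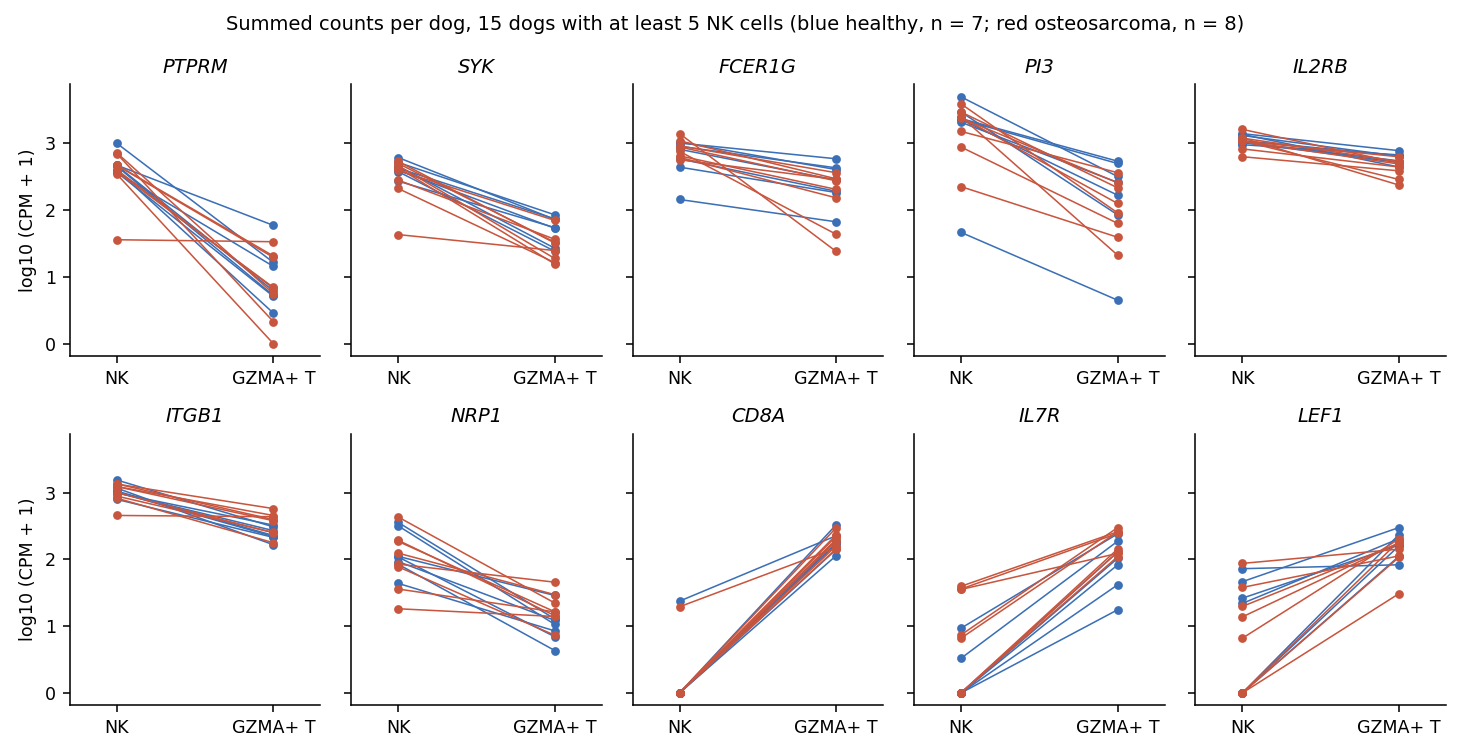
Level of 10 genes in NK cells and GZMA+ T cells of each of 15 dogs, as log10 of CPM plus 1 (y axis); each line joins the 2 sums of 1 dog. PTPRM, SYK, FCER1G, PI3, IL2RB, ITGB1 and NRP1 are higher in the NK sum of 15 of 15 dogs, and CD8A, IL7R and LEF1 lower in 15 of 15.

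Markers of other blood cells were read in the same sums. Of 9 tested monocyte genes, 3 were lower in NK cells, among them LYZ and VCAN, and none higher. Of 5 neutrophil genes S100A8 was lower. Of all genes, 1.31% were higher and 1.6% lower. In 15 dogs S100A8 was called again and none of 10 monocyte genes was. The summed level of 10 monocyte genes was 33.3, 75.9 and 72.9 CPM in NK cells of H3, H5 and OS6 against 368, 291 and 1960 CPM in GZMA+ T cells and 25377 CPM in myeloid cells. Over 15 dogs the NK sum was the lower in 7 of 7 healthy dogs but the higher in 5 of 8 OS dogs, by far the most in OS1 (6086 against 296 CPM). OS4 stood at 245 against 92.2 CPM. The sums of OS3, OS5 and OS8 lay close, at 84.1 against 77.4, 232 against 223 and 75.1 against 62.5 CPM. In 3 dogs no gene was called among 7 tested B cell genes, 4 platelet and erythrocyte genes, 6 gamma-delta T cell genes, 5 genes of NK T cells, 16 interferon-stimulated genes, 11 immediate early and stress genes and 2 relatives of STMN2. With 2.91% of all genes called, lists of this size would hold few or no calls, so this says little about these genes. In 15 dogs DSTN, an actin regulator on the NK T cell list, was higher and STMN1, a relative of STMN2 also listed with the cell cycle, was lower. Of 4 tested markers of the study that the gate did not use, CD96 and IL2RB were higher, which is not independent evidence since they were found in these samples. CD79B, EBF1, BLNK, CD22 and FCRLA, B cell genes, had no UMI in NK cells of the 15 dogs. CD79A was counted in 99.6% of NK cells, 99.9% of GZMA+ T cells and 78.0% of myeloid cells and does not mark B cells in these counts.

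NRP1, a co-receptor found on some innate lymphoid cells, was the called gene of 4 tested in the list of other innate lymphoid cells. It stood at 108, 110 and 123 CPM against 5.95, 27.9 and 28.7 CPM (2.28 ± 0.31, log2, SE). Of all genes, 1.31% were higher, which also applies to the cell cycle genes below. IL1RL1, a receptor of another innate lymphoid class, had no UMI in NK cells of the 15 dogs. MKI67 and TOP2A, genes of dividing cells, were the called genes of 9 cell cycle genes (3.30 ± 0.65 and 4.58 ± 0.85), but 7 of 247 NK cells (2.83%, interval 1.15 to 5.75%) and 97 of 5778 GZMA+ T cells (1.68%, interval 1.36 to 2.04%) held a UMI of either. The 7 cells came from H5 (2), OS6 (3) and OS8 (2), the 2 of H5 giving 66.7 CPM of MKI67, and neither gene was called in 15 dogs.

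OS and healthy dogs were then compared within NK cells, to ask whether the presence of the tumor went with another expression program. With at least 25 cells per sum the comparison held 2 healthy dogs (H3, H5) and 1 dog with OS (OS6), whose spread was assumed to equal that of the healthy dogs. This fit compares OS6 with H3 and H5, and the disease and that single dog cannot be told apart in it. Of 6640 genes tested, 7 were higher in OS6 and none lower, 0.105% of the genes tested in either direction, and 319 had an unadjusted p below 0.05. VWF and ADAMTS16, a clotting factor carrier and a metalloprotease, had no UMI in NK cells of H3 and H5 and stood at 67.3 and 56.1 CPM in OS6, at least 12.5-fold and 10.38-fold higher. Over 15 dogs VWF was highest in H4, a healthy dog, at 68.2 CPM (3 UMIs), and had no UMI in 5 of 8 OS dogs, and with doublets removed ADAMTS16 was not called (adjusted p = 0.011, edgeR). DLA88, a classical major histocompatibility class I gene, stood at 624 and 710 CPM in H3 and H5 and at 4044 CPM in OS6 (2.59 ± 0.47, log2, SE). The other 4 genes had no symbol, with ENSCAFG00000006485 at 49.9, 34.5 and 1352 CPM.

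None of the 7 genes was called over 15 dogs in the fit without further terms. DLA88 was called with the replicate number as a block, which kept 6 healthy and 6 OS dogs (1.53 ± 0.30, log2, SE), but not in the 15 dogs without it (1.00 ± 0.33). The numbers do not pair dogs, so fits with this block serve only as alternatives. ENSCAFG00000006485 was called with doublets removed, which kept 7 dogs in each group (2.27 ± 0.44), and in the 7 dogs with at least 10 cells (3.05 ± 0.51), and stood at −0.02 ± 0.45 with the block. Its medians were 49.9 CPM in healthy and 48.0 CPM in OS dogs, with 4 of 8 OS dogs at 0. Over the 15 dogs DLA88 ranged from 624 to 3523 CPM in NK cells of healthy dogs (median 718) and from 207 to 4696 CPM in OS (median 2811), with 3 of 8 OS dogs above every healthy dog. Its level in GZMA+ T cells of the same dogs lay close, at 686, 793 and 4887 CPM in H3, H5 and OS6 and at 335 CPM in OS8, which was lowest in both populations. ENSCAFG00000006485 likewise stood at 2092 CPM in GZMA+ T cells of OS6, against 463 and 665 CPM in H3 and H5. Near the threshold in the other direction were SSBP2, PLCL1 and CDS2, without a UMI in OS6 and at least 5.57-, 5.67- and 3.96-fold lower there. None of them was called with TMM (adjusted p = 0.013, 0.013 and 0.11, edgeR), whereas SSBP2 and PLCL1 were called when sums were scaled by totals (both adjusted p = 0.0089), which gave 7 genes higher and 2 lower. DLA88 belongs to a polymorphic family, and reads of near-identical copies may be split between them, so its level is uncertain.

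With sums of at least 5 cells, 7 healthy and 8 OS dogs could be compared. Of 7861 genes tested, 7 were higher in OS (0.089%) and 2 lower (0.0254%), together 0.114%; 336 had an unadjusted p below 0.05, and DESeq2 called none, with 158 at an unadjusted p below 0.05. None of the 9 was among the 7 called in 3 dogs. Every called gene overlapped between groups. No NK receptor, signaling, granule, cytokine, cytokine receptor or homing gene was called, in lists of 10 to 18 tested genes. With 0.114% of all genes called, lists of this size would hold few or no calls, so this says little about these genes. IL2RB (−0.11 ± 0.21), CD96 (0.06 ± 0.23), NCR3 (−0.27 ± 0.21), GZMB (0.02 ± 0.23) and SYK (−0.24 ± 0.26) differed by less than 1.5 times their SE on the log2 scale.

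Among the called genes, BACH2, a transcription factor that restrains effector differentiation, ranged from 0 to 136 CPM in healthy dogs (median 24.96) and from 35.0 to 673 CPM in OS (median 190.1). In this gene 5 of 8 OS dogs lay above every healthy dog (2.23 ± 0.45, log2, SE, adjusted p = 0.0081, edgeR). The 2 highest, OS3 and OS5, rest on 16 UMIs in 5 cells each, and healthy sums held 0 to 33 UMIs. In GZMA+ T cells BACH2 ranged from 79.3 to 352 CPM in healthy dogs and from 76.6 to 322 CPM in OS. ESYT3, a protein of membrane contact sites, ranged from 0 to 92.1 CPM (median 41.9) and from 37.6 to 631 CPM (median 161), with 6 of 8 OS dogs above every healthy dog (2.01 ± 0.42). Of those, OS3 (15 UMIs in 5 cells), OS9 and OS2 were highest, at 631, 362 and 275 CPM. Their GZMA+ T cells held 849, 389 and 510 CPM of ESYT3, above those of every healthy dog (up to 364 CPM). GZMA+ T cells of OS1, OS6 and OS4 held 338, 162 and 59.6 CPM. The gene without a symbol that was high in NK cells, ENSCAFG00000031333, ranged from 108 to 2524 CPM in healthy dogs (median 1515) and from 126 to 1197 CPM in OS (median 454; −1.58 ± 0.31). ARHGAP6, a GTPase activating protein, had 44 UMIs in 5 of 7 healthy dogs and none in the 8 OS dogs, at least 10.2-fold lower. These 4 genes were also called with doublets removed and with age as a covariate. With the replicate block, whose numbers do not pair dogs, BACH2 and ESYT3 were called (2.72 ± 0.47 and 2.21 ± 0.50). ARHGAP6 (adjusted p = 0.28, edgeR) and ENSCAFG00000031333 (−1.26 ± 0.33, adjusted p = 0.069, edgeR) were not. In the 4 healthy and 3 OS dogs with at least 10 cells the called genes were VIM (1.51 ± 0.25), ENSCAFG00000006485 and ENSCAFG00000031333 (−1.67 ± 0.27). BACH2, ESYT3 and ARHGAP6 were not called there (adjusted p = 0.15, 0.037 and 0.075, edgeR). BACH2 stood at 1.87 ± 0.46 and ESYT3 at 1.94 ± 0.41 in these dogs, and ARHGAP6 was again lower in OS.

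The remaining called genes were higher in OS, and several were highest in OS1 or OS4. VIM, the intermediate filament vimentin, ranged from 265 to 1069 CPM in healthy dogs (median 329) and from 505 to 3525 CPM in OS (median 886; 1.60 ± 0.29, log2, SE). LYZ, PLBD1 and ARHGAP45 were highest in OS1, at 4490.2, 1503 and 2282 CPM, and S100A12, a calgranulin of myeloid cells, in OS4, at 2068 CPM. In the NK sum of OS1, of 7 cells, the monocyte list reached 6086 CPM against 33.3 to 364 CPM in the 7 healthy dogs, and in that of OS4, of 5 cells, the neutrophil list reached 7570 CPM against 419 to 2160 CPM. Without OS1, LYZ stood at −0.41 ± 0.56 (3.38 ± 0.71 with it), PLBD1 at 1.27 ± 0.92 (5.07 ± 0.94), ARHGAP45 at 0.49 ± 0.52 (2.94 ± 0.61), VIM at 1.15 ± 0.26 (adjusted p = 0.026) and S100A12 at 3.76 ± 0.80 (4.03 ± 0.82). S100A12 had a median of 0 CPM in both groups and 59 of its 90 UMIs in OS came from OS4, without which it stood at 2.22 ± 0.78 (adjusted p = 0.69, edgeR). With age as a covariate none of the 5 was called, with S100A12 at 1.18 ± 0.88, LYZ at 1.85 ± 0.74 and ARHGAP45 at 1.89 ± 0.60. PLBD1 stood at 3.95 ± 0.97 (adjusted p = 0.080, edgeR) and VIM at 1.36 ± 0.28 (adjusted p = 0.011, edgeR) in that fit. With the replicate block VIM (1.57 ± 0.31), PLBD1 (4.54 ± 0.87) and S100A12 (4.25 ± 0.67) were called and LYZ and ARHGAP45 were not. With doublets removed, which took 1 of the 7 NK cells of OS1 and left OS4 under 5 cells and out of the fit, LYZ, PLBD1 and ARHGAP45 were not called, S100A12 was too sparse to be tested, and VIM stood at 1.04 ± 0.25 (adjusted p = 0.071). VIM was called in the 7 dogs with at least 10 cells, which do not include OS1 or OS4.

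No gene was called when OS1, H5 or H7 was left out of the 15 dogs, with 311, 295 and 330 genes at an unadjusted p below 0.05 (edgeR). Without OS1, BACH2 stood at 2.12 ± 0.45 (adjusted p = 0.012) and ENSCAFG00000031333 at −1.46 ± 0.31 (adjusted p = 0.012), and without H5 at 2.69 ± 0.55 and −1.62 ± 0.33 (both adjusted p = 0.015).

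**Figure D5:**
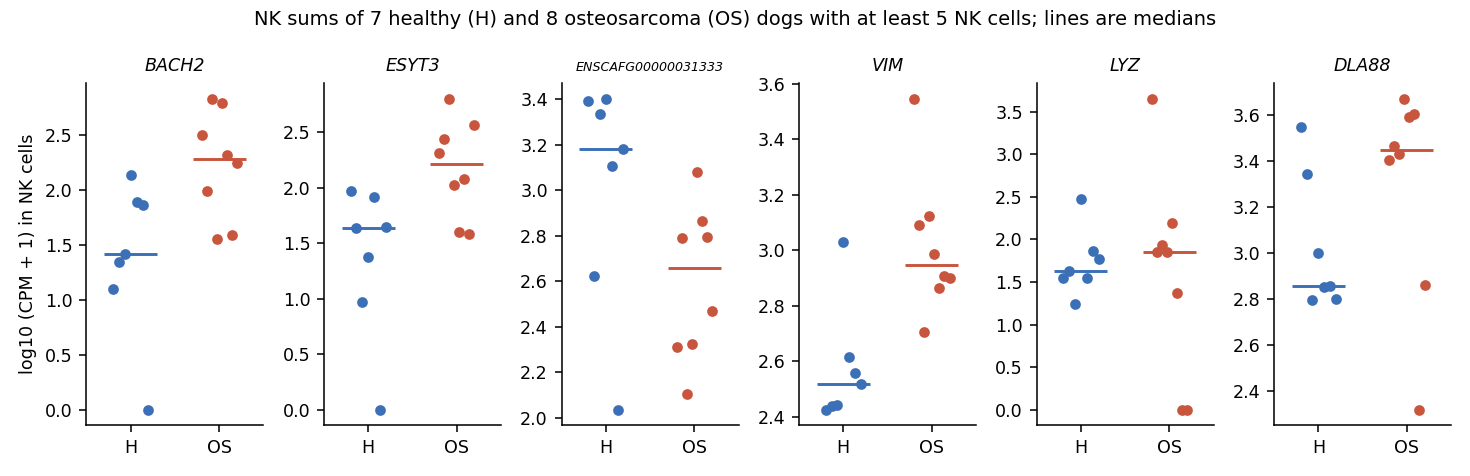
Level of 6 genes in the NK sums of 7 healthy (H) and 8 osteosarcoma (OS) dogs, as log10 of CPM plus 1 (y axis, own scale per gene); lines are group medians. BACH2, ESYT3, VIM, LYZ and DLA88 have higher medians in OS and ENSCAFG00000031333 a lower one; the groups overlap for each gene, and 1 OS dog, OS1, sets the highest LYZ and VIM.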

How the data were processed

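The authors deposited 1 matrix per dog of UMI counts per gene and cell barcode (20257 genes; 10x 3′ chemistry, Cell Ranger 7.0.0 on CanFam3.1 per the labels, where Seurat is named without a version). Whether the deposited counts hold intronic reads is not given in the sources used here. Doublets were kept, as in the rule. Scrublet in scanpy 1.11.5 scored them for an alternative, which removed 3938 cells, 4 of them NK cells; its own threshold marked 1.71% of cells. Of cells passing the limits 1849 share a barcode sequence with another library, 4 of them NK cells, and no barcode was an NK cell in 2 libraries.

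Counts were summed per dog and population and tested with edgeR 4.0.16 (TMM, at least 10 counts per gene; scaled by totals for sums of 5 or more cells), with DESeq2 1.42.0 as an alternative, in R 4.3.3. The dog was a block between populations. Scripts were tested on simulated counts. Shares were compared by the exact Wilcoxon test in scipy 1.17.1. Replicate numbers do not pair dogs: the correlation of same-numbered dogs' deviations was −0.0168 to 0.0715 over 6 numbers, and 1 of 6 dogs correlated best with its own number.

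The members and gene lists were chosen with earlier results of these data known. Named genes were the gate markers, fixed NK genes, per list the up to 2 called genes in each direction with the largest change at a mean of at least 10 CPM, over all genes the 8 in each direction at 20 CPM that moved alike in every dog, and for OS up to 5 in each direction, or the 3 with the smallest p. Other genes in the text, such as the remaining called list members, ZAP70, LCK, NCR1, PRF1, TBX21, EOMES, SKAP1, TRAT1 and the genes called in 15 dogs, were chosen after their values were seen. No genome of the files' build was used, so positions are not given. Some members of the gene lists are counted but not reported here by name.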

Additional observations from a re-analysis of the deposited data

Results flagged for a closer look

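A value was marked where the highest or lowest dog of a group lay far from its nearest neighbour relative to the range of the group (Dixon's criterion). Of 90 groups checked, 23 (25.6%) were marked. Chance marks about 1 in 20 groups of normally distributed values, and the groups here share dogs and small sums. Many values lay near 0, as for S100A12 with no UMI in 5 of 8 OS dogs. Genes such as LYZ, PLBD1 and S100A12 were checked because they were called in the same dogs. The share marked therefore cannot be set against 1 in 20.

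For shares, H5 had 1.51% NK cells among healthy dogs, and OS6 0.747% of all cells and 19.2% of NK plus GZMA+ T cells among dogs with OS. H1 stood apart with 2994 CPM of GZMB, 299 CPM of ENSCAFG00000006485, 127 CPM of ENSCAFG00000046009 and 553 CPM of ENSCAFG00000030286. H2 stood apart with 1006 CPM of PTPRM and 189 CPM of ENSCAFG00000013453, from 6 cells. H4 stood apart with 250.2 CPM of KLRK1, 296 CPM of LYZ and 1069 CPM of VIM, from 9 cells.

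Among dogs with OS, OS1, with 7 cells, held 4490.2 CPM of LYZ, 1503 CPM of PLBD1, 2282 CPM of ARHGAP45, 3525 CPM of VIM and 519.5 CPM of ENSCAFG00000030286. OS3, with 5 cells, held 210.3 CPM of GNAI1 and 84.1 CPM of PLCL1. OS4 held 2068 CPM of S100A12, OS5 347 CPM of FASLG, OS6 1352 CPM of ENSCAFG00000006485 and OS8 432 CPM of NRP1.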

How the results depend on the processing

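The NK share kept its direction and its side of the threshold under every alternative run, among them 3 or more markers, 1 or more markers, doublets removed, no limits and thinning; it was smallest when thinned, at −0.0253 percentage points. With each dog left out in turn the difference was −0.112 to −0.0430 percentage points (p = 0.210 to 0.635, exact Wilcoxon test). With the replicate number as a block, the median difference was −0.0737 (exact sign-flip p = 0.609). Genes differing between NK and GZMA+ T cells numbered 295; DESeq2 gave 90, no dog block 90, cells with 1500 to 6000 UMIs 109, and leaving out 1 of 3 dogs 168 (without H5) to 218. With at least 5 cells per sum they numbered 353, and 194 in OS dogs alone. At 10 cells per sum the split was 152 higher and 237 lower with TMM and 187 and 188 scaled by totals. Of 711 values of 45 named genes over 16 settings, 630 kept their call, 75 lost it and 5 gained one; CRTAM, GZMK, CD160, LAT2 and TNFSF10 lost theirs most widely, and LYZ turned to 0.085 at 1500 to 6000 UMIs.

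Genes differing between OS6, the single OS dog with 25 cells, and 2 healthy dogs numbered 7 (7 higher, 0 lower); scaling by totals gave 7 higher and 2 lower, DESeq2 2, DESeq2 size factors 0 and at least 50 counts 0 (207 and 47 at an unadjusted p below 0.05), and 10 cells per sum 3 with either scaling, where ENSCAFG00000030286 turned to −0.57 and −0.62. With 5 cells per sum (9 genes), DESeq2 and at least 50 counts gave 0 (158 and 151 at an unadjusted p below 0.05), age as a covariate 4, at least 1 count 17, the replicate block (8 higher, 1 lower) 9, and leaving out each dog 0 to 10 (0 without OS1, H5 or H7, 2 without H3, 4 without H2, H4 or H6). The cause of these changes was not tested. With 25 cells per sum, OS against healthy could not be fitted with 3 markers, a left-out dog, age or the replicate block, nor NK against T cells with 3 markers or OS dogs alone. Most dogs hold under 10 NK cells, which limits what these sums can show.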
